A study of Mus musculus with 16 samples.

Results

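S1pr1, Klf2, Foxo1, Cd24a, Cd44, Cd27 and Cd28 encode the receptor through which thymocytes leave the thymus, its regulators and surface markers of single-positive maturation. They were chosen by name, as these 7 symbols among the 24974 genes listed for both cell types, and all 7 were measured. RNA-seq was made from 16 samples of thymocytes that had been sorted from mice. Of DP cells, which carry both CD4 and CD8, 3 were control and 3 cKO, and of CD8 cells, sorted as TCRβ+CD8+, 5 were control and 5 cKO. All mice were of C57BL/6 background, carried floxed Tox4 exons 4 to 6 on both alleles, and were sex-matched littermates aged 6 to 8 weeks. Control mice had no Cre, and cKO mice carried Lck-Cre, which the proximal Lck promoter drives from the DN3 stage on, so that Tox4 was to be removed before the DP stage. Libraries were made from poly-A RNA and kept strand. The comparisons ask whether Tox4 loss changed the transcripts of these genes in DP or in CD8 cells, and how they differ between the stages in cells that keep Tox4.

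Thymocytes pass from the DP stage through selection to the CD4 or CD8 single-positive stage, and mature single-positive cells leave through the receptor for sphingosine 1-phosphate, S1pr1. The transcription factor Klf2 drives S1pr1 transcription, and Foxo1, which signalling through PI3K and Akt keeps out of the nucleus, promotes Klf2 and other genes of naive T cells. Immature thymocytes carry much heat-stable antigen, encoded by Cd24a, and lose it as they mature, while Cd44 marks early progenitors and activated or memory cells, and Cd27 and Cd28 are costimulatory receptors of the TNF receptor and immunoglobulin families.

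Depth was 16524506 to 18484568 counts on genes in control DP samples, 14583336 to 25981683 in cKO DP samples, 9420085 to 13530783 in control CD8 samples and 8514135 to 11828492 in cKO CD8 samples. The unit used below, unless named otherwise, is CPM, counts scaled to a common library size by TMM normalization of all 16 samples together, and values are given in the order of the replicate numbers. Tox4, the targeted gene, stood at 149, 165 and 175 CPM in control DP samples and at 128, 135 and 129 CPM in cKO DP samples. Every cKO DP sample was below every control DP sample, and 14.7% of the genes tested that both tables hold also had groups that did not overlap. The log2 fold change of Tox4 in DP cells was -0.32 (SE 0.11), with an adjusted p of 0.381 in edgeR and an exact permutation p of 0.1. In CD8 cells Tox4 stood at 199, 191, 204, 207 and 183 CPM in control samples and at 173, 189, 178, 237 and 168 CPM in cKO samples. The library labelled cKO replicate 4 was above all control CD8 samples, replicate 2 lay among them and the other 3 were below them, so Tox4 counts do not follow the genotype labels in every CD8 library. The log2 fold change of Tox4 in CD8 cells was -0.06 (SE 0.10), with an adjusted p of 0.979 in edgeR. By the rule given below, Tox4 was called in neither cell type. The count covers the whole gene, and exons outside the floxed ones contribute to it. By Western blot, the paper found efficient deletion in unsorted and sorted thymocytes. Cd163l1, called in CD8 cells below, was at 6.70 CPM in the library labelled cKO replicate 4. In control CD8 samples it was at 1.41 to 3.07 CPM. The call of Cd163l1 already counted this library as cKO, so its value there is no independent check of the label.

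The labelled cell types were checked against their markers. Cd4 was at 1819, 1556 and 1865 CPM in control DP samples, while control CD8 samples had 61.6, 66.4, 6.02, 3.67 and 10.5 CPM. Rag1, which cuts DNA in antigen receptor rearrangement, was at 9150.5, 7129.6 and 8044 CPM in control DP samples and at 93.0, 122, 22.3, 12.1 and 15.6 CPM in control CD8 samples. Runx3, a transcription factor of the CD8 lineage, was at 34.6, 45.9 and 28.8 CPM and 655, 602, 620.1, 582 and 584 CPM in the same groups. Cd4 and Rag1 were high in every DP sample and Runx3 in every CD8 sample, with no overlap between the cell types. Within the CD8 samples, replicates 1 and 2 held more Cd4 and Rag1 than replicates 3 to 5, in cKO libraries too, where Cd4 was at 68.4, 77.7, 6.38, 5.88 and 7.28 CPM and Rag1 at 78.8, 99.1, 24.6, 34.7 and 23.4 CPM.

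Control CD8 cells differed from control DP cells in 5 of the 7 genes. S1pr1, Klf2, Foxo1 and Cd44 were higher, which is 4 genes where 22% of all 11758 genes tested were called higher. Cd24a was lower, which is 1 gene where 22.3% of all genes tested were called lower. In these 5 genes the control groups did not overlap, as in 56.9% of all genes tested, so lack of overlap is common in this comparison. A call needed an adjusted p under 0.05 in edgeR's quasi-likelihood test, a change of 1.5 times or more and a mean TPM (counts divided by exonic length, then scaled to the same sum in each sample) of 1 or more. The median log2 fold change was 1.72 over these 7 genes and -0.01 over all genes tested. The cell type and the count table change together here and cannot be told apart, and these control samples also serve in the genotype comparisons below.

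S1pr1 (chromosome 3, 115710433 to 115715055 in mm10), the egress receptor, was at 5.64, 2.41 and 2.52 CPM in control DP samples, from 44 to 99 counts. In control CD8 samples it was at 709, 505, 854, 926 and 749 CPM. The lowest CD8 sample, replicate 2, was far above the highest DP sample, replicate 1, and the groups did not overlap. The means were 3.52 ± 1.83 CPM (SD, n = 3) and 749 ± 161 CPM (SD, n = 5). On the log2 scale the fold change was 7.76 (SE 0.35), SE being its standard error, with an adjusted p of 1.56e-08 in edgeR. A 2-sided exact permutation test gave p = 0.0357, and 5 samples against 3 allow no smaller p. In these bulk samples fewer cells of a type and less RNA per cell cannot be told apart.

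**Figure D1:**
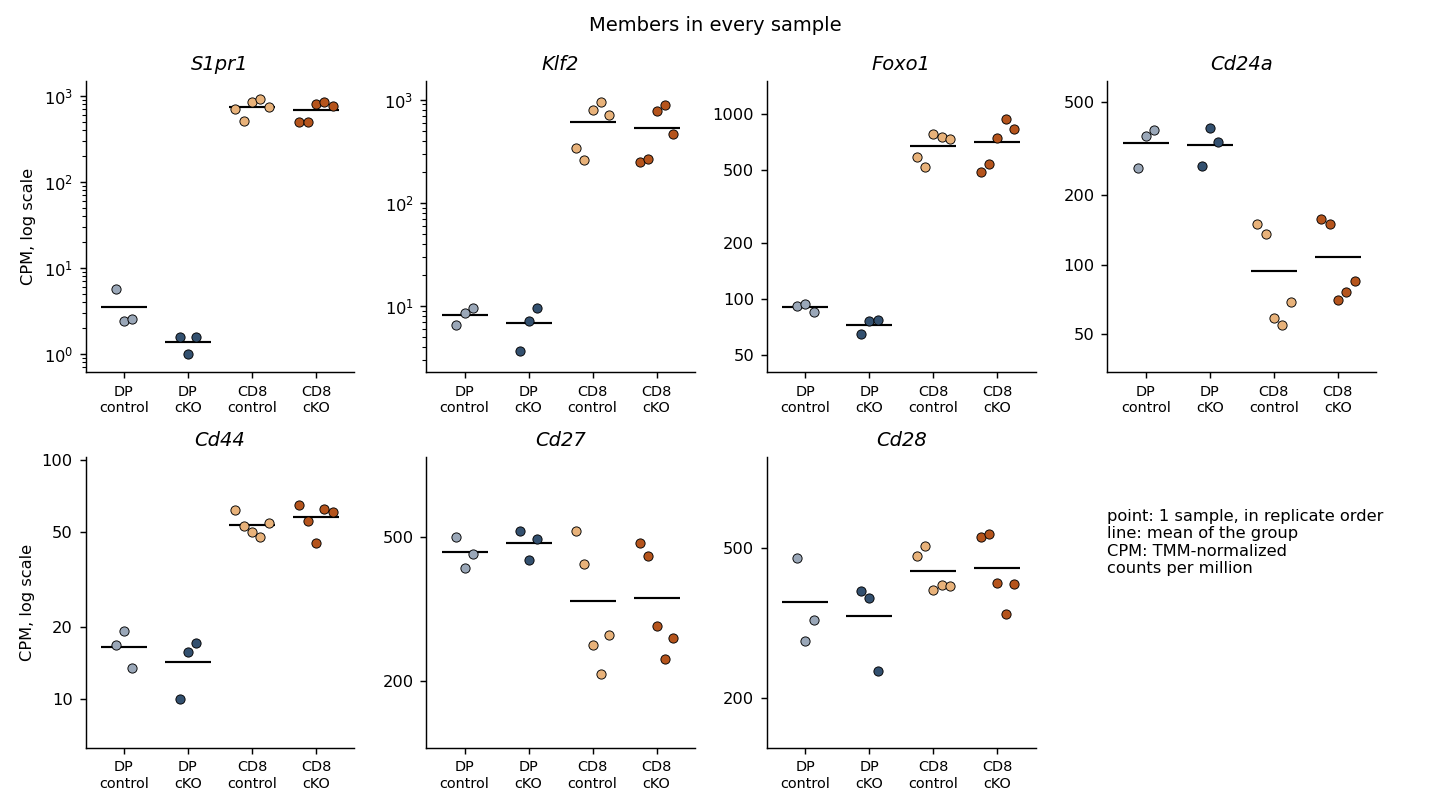
TMM-normalized CPM, on a log axis, of the 7 genes in every sample of the 4 groups, in replicate order, with a line at each group's mean. S1pr1, Klf2, Foxo1 and Cd44 lie higher in every CD8 sample than in any DP sample, Cd24a lower, and CD8 replicates 1 and 2 lie apart from 3 to 5 for Klf2, Cd24a and Cd27. Between the control groups, 56.9% of all genes tested did not overlap.

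Klf2 (chromosome 8, 72319062 to 72321654), the Krüppel-like factor that drives S1pr1, was at 6.55, 8.54 and 9.63 CPM in control DP samples. In control CD8 samples it was at 341, 263, 799.9, 949 and 718 CPM, with replicates 1 and 2 low and replicates 3 to 5 high. The groups did not overlap, and the log2 fold change was 6.24 (SE 0.49) with an adjusted p of 6.99e-07 in edgeR. The spread within the CD8 controls, 614 ± 298 CPM (SD, n = 5), was the widest of the 7 genes, with the highest sample 3.61 times the lowest. Foxo1 (chromosome 3, 52268337 to 52350109), the forkhead factor upstream of Klf2, was at 92.3, 93.9 and 85.7 CPM in control DP samples and at 587, 516, 782, 748 and 729 CPM in control CD8 samples. Every CD8 sample was above every DP sample, and replicates 1 and 2 were again the low ones. Its log2 fold change was 2.92 (SE 0.16) with an adjusted p of 3.87e-08 in edgeR, and the permutation p was 0.0357 for both regulators, the smallest possible.

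The sequences from 250 bases before to 50 bases after the start are shown for both regulators and for Cd44, which were higher in control CD8 cells, and for Cd27, which was not called, to compare genes with different behaviour. They come from RefSeq, build GRCm38.p6, where 4 of the 7 genes were matched: Klf2 at chr8:72318812-72319111, plus strand, Foxo1 at chr3:52268087-52268386, plus strand, Cd44 at chr2:102901616-102901915, minus strand and Cd27 at chr6:125236978-125237277, minus strand. S1pr1, Cd24a and Cd28 are named only. Each is written 5′ to 3′ on the strand of its gene, and capitals mark CACCC or its reverse complement GGGTG, a core of sites bound by Krüppel-like factors.
Klf2: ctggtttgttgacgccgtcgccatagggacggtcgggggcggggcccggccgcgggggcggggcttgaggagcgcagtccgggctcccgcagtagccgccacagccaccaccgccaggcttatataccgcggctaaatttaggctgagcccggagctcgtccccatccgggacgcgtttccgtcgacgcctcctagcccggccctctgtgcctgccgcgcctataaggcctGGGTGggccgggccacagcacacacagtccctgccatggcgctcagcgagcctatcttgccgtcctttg
Foxo1: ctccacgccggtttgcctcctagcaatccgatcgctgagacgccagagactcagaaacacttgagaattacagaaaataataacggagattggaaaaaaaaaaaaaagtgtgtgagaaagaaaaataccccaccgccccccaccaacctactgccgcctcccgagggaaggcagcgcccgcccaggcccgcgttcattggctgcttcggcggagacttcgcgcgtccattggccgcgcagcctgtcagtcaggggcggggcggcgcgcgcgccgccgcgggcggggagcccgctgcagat
Cd44: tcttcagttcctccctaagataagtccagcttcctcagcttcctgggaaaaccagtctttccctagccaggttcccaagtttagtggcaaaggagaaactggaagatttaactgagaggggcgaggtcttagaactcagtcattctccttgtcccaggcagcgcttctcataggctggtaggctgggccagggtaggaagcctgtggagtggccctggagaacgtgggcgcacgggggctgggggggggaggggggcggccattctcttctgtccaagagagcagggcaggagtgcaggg
Cd27: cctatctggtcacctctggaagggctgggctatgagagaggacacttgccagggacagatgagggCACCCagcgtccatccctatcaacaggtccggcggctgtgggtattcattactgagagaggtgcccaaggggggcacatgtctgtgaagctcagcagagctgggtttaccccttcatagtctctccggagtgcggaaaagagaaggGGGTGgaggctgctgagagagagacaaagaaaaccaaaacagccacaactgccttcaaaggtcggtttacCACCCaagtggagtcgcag
The motif occurred 1 time in the Klf2 window, 3 times in the Cd27 window and 0 times in those of Foxo1 and Cd44, and 57.5% of all 32851 promoters of this length hold it. The forkhead motif GTAAACA, or TGTTTAC, was in 0 of the 4 windows and in 3.65% of all promoters. A match describes these letters only, and no binding was measured.

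Of the surface markers, Cd24a (chromosome 10, 43579169 to 43584265), which encodes heat-stable antigen, was at 259.7, 359 and 380.3 CPM in control DP samples and at 149, 136, 59.0, 55.1 and 68.7 CPM in control CD8 samples. All CD8 samples were below all DP samples, with replicates 1 and 2 the highest of the CD8 group. For Cd24a the log2 fold change was -1.81 (SE 0.31) with an adjusted p of 0.000361 in edgeR. Intronless copies of Cd24a are known in the mouse genome, so its count is uncertain. Cd44 (chromosome 2, 102811142 to 102901665), the hyaluronan receptor, was at 16.9, 19.3 and 13.5 CPM in control DP samples and at 62.1, 53.0, 49.9, 47.8 and 54.5 CPM in control CD8 samples. The groups did not overlap, and here CD8 replicates 1 and 2 were not the low ones. Its log2 fold change was 1.72 (SE 0.15) with an adjusted p of 1.88e-06 in edgeR.

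Cd27 (chromosome 6, 125232622 to 125237027), the receptor for CD70, was at 500.4, 409.5 and 447 CPM in control DP samples and at 517, 420.0, 252.4, 209.8 and 268 CPM in control CD8 samples. CD8 replicate 1 lay above the DP range, replicate 2 within it and replicates 3 to 5 below it, so the groups overlapped. For Cd27 the log2 fold change was -0.41 (SE 0.25), with a 95% interval of -0.96 to 0.14, and it was not called (adjusted p = 0.175 in edgeR, permutation p = 0.25). Without CD8 control replicate 1 it was -0.62 with an adjusted p of 0.0205 in edgeR, past the threshold, which makes 6 genes called, and over all alternatives the adjusted p ranged from 0.0205 to 0.382. The annotated microRNA Mir8113 overlaps an exon of Cd27 on the same strand, so fragments there are uncertain. Cd28 (chromosome 1, 60746388 to 60773359), the receptor for CD80 and CD86, was at 471, 282 and 322 CPM in control DP samples and at 477, 505, 387, 399 and 396 CPM in control CD8 samples. DP replicate 1 lay within the CD8 range, and the other 2 DP samples lay below it. The log2 fold change was 0.30 (SE 0.16), interval -0.06 to 0.66, and it was not called (adjusted p = 0.131 in edgeR, permutation p = 0.143). Without DP control replicate 1 the log2 fold change of Cd28 was 0.54 with an adjusted p of 0.00559 in edgeR, still under a change of 1.5 times and so not called, and over all alternatives the adjusted p ranged from 0.00559 to 0.460.

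**Figure D2:**
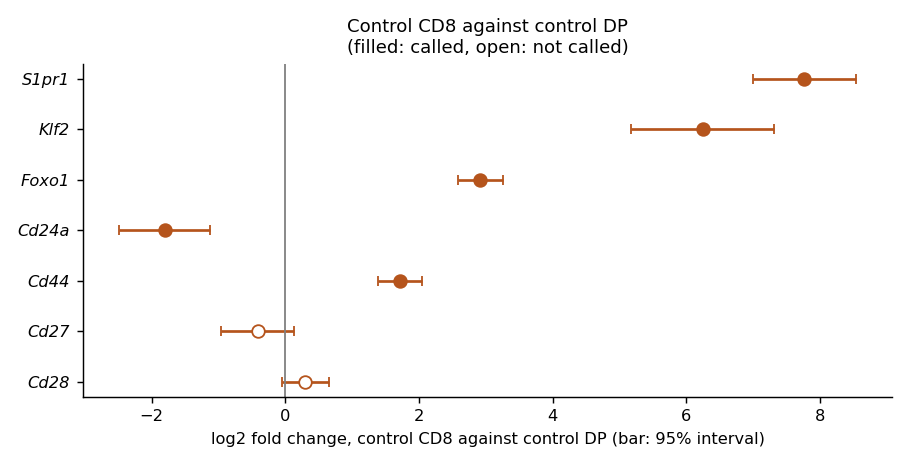
Log2 fold change of each gene in control CD8 against control DP samples, with 95% intervals from edgeR, filled where called. S1pr1 (7.76) and Klf2 (6.24) lie farthest from 0, and the intervals of Cd27 and Cd28 include 0.

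The CD8 replicates 1 and 2 stood apart in both genotypes, and values of marker lists are given beside them. The CD4 single-positive list (Cd4, Zbtb7b and Cd40lg, 3 of 3 measured, none at 0 in every sample, most abundant Cd4) summed to 75.9, 76.5, 11.2, 7.63 and 17.2 CPM in control CD8 samples and to 83.5, 86.4, 10.9, 9.52 and 10.3 CPM in cKO CD8 samples. The DP thymocyte list (7 of 7 measured, most abundant in CD8 cells Cd8a, none at 0 in every sample) summed to 2704, 2656, 2550.1, 2419 and 2458 CPM and 2313, 2315, 2167, 2694 and 2154 CPM in the same groups. The sum of the first list was high in replicates 1 and 2, as were Cd24a and Cd27, while Klf2, S1pr1 and Foxo1 were lowest there. The part of these markers in the levels was not tested.

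In DP cells, 0 of the 7 genes were called in cKO against control samples by edgeR, where 0.145% of all 11748 genes tested were called. Without adjustment 2 genes, S1pr1 and Foxo1, had a p under 0.05, as did 9.18% of all genes, and DESeq2 called 0. The median log2 fold change was -0.21, beside 0.00 over all genes tested, and 6 of the 7 estimates were below 0.

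S1pr1 was at 5.64, 2.41 and 2.52 CPM in control DP samples and at 1.55, 0.977 and 1.55 CPM in cKO DP samples, from 15 to 40 counts in the latter. Every cKO sample was below every control sample, and control replicate 1 stood above the other 2 controls. In edgeR the log2 fold change was -1.36 (SE 0.42), with a 95% interval of -2.30 to -0.42, and it failed the adjustment (adjusted p = 0.330 in edgeR, unadjusted p = 0.00983; exact permutation p = 0.1, the smallest for 3 samples against 3). Without control replicate 1 the log2 fold change was -0.85, so that library carries much of its size. Over all alternatives the adjusted p ranged from 0.113 to 0.678.

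Of the regulators in DP cells, Foxo1 was at 92.3, 93.9 and 85.7 CPM in control and at 64.8, 76.0 and 77.0 CPM in cKO samples. Every cKO sample was below every control sample, as for S1pr1, so 2 of the 7 genes had groups that did not overlap, as had 14.7% of the genes tested that both tables hold, where 0.145% of all genes tested were called. The log2 fold change of Foxo1 was -0.32 (SE 0.12), interval -0.59 to -0.05, adjusted p = 0.427 in edgeR and exact permutation p = 0.1. Klf2 was at 6.55, 8.54 and 9.63 CPM in control and at 3.69, 7.23 and 9.51 CPM in cKO samples. Only cKO replicate 1 was below all controls, and the log2 fold change of Klf2 was -0.28 (SE 0.33), interval -1.02 to 0.46, adjusted p = 0.867 in edgeR.

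The 4 surface markers overlapped between the genotypes in DP cells. Cd24a was at 265, 386 and 336 CPM in cKO DP samples, within or just above the control range, with a log2 fold change of -0.02 (SE 0.18) and an interval of -0.43 to 0.40. Cd44 was at 10.02, 15.7 and 17.2 CPM there, where replicate 1 was below the controls, with -0.21 (SE 0.23) and -0.74 to 0.31. Cd27 was at 519, 430.4 and 494 CPM, with 0.09 (SE 0.12) and -0.18 to 0.35. Replicate 1 held the highest Cd27 and the lowest Cd44 of the cKO DP samples. Cd28 was at 383, 369 and 236 CPM, with -0.12 (SE 0.23) and -0.64 to 0.41, and replicate 3 was its low sample. The intervals are 95% intervals of the log2 fold change in edgeR, and their adjusted p-values ran from 0.848 for Cd44 to 0.985 for Cd24a.

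In CD8 cells, 0 of the 7 genes were called in cKO against control samples by edgeR, where 0.098% of all 11227 genes tested were called. Without adjustment 0 genes had a p under 0.05, as did 5.60% of all genes, and DESeq2 called 0. The count was 0 also without the library labelled cKO replicate 4. In all 7 genes the genotypes overlapped, and 1.51% of the genes tested that both tables hold had groups that did not. The median log2 fold change was 0.03, beside -0.01 over all genes tested.

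S1pr1 was at 499, 492, 799.9, 851 and 753 CPM in cKO CD8 samples, beside the 709, 505, 854, 926 and 749 CPM of the controls. The 2 low cKO values were those of replicates 1 and 2. The log2 fold change was -0.14 (SE 0.18), interval -0.53 to 0.25, adjusted p = 0.979 in edgeR and exact permutation p = 0.524. Klf2 was at 248, 267, 772, 893 and 462 CPM in cKO CD8 samples, with the same 2 replicates low and replicate 5 between, a log2 fold change of -0.21 (SE 0.39) and an interval of -1.04 to 0.62. Foxo1 was at 486, 539, 745, 941 and 825 CPM, where the library labelled cKO replicate 4 was the highest of all, with 0.08 (SE 0.17) and -0.30 to 0.45.

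Cd24a was at 158, 149.6, 70.6, 76.2 and 85.3 CPM in cKO CD8 samples, where replicates 1 and 2 were high as in the controls, with a log2 fold change of 0.21 (SE 0.31) and an interval of -0.45 to 0.86. Cd44 was at 64.8, 55.7, 45.1, 62.4 and 60.8 CPM, with 0.11 (SE 0.11) and -0.13 to 0.36. Cd27 was at 480.4, 442, 284, 229.8 and 262 CPM, again with replicates 1 and 2 high, with 0.03 (SE 0.25) and -0.52 to 0.57. The intervals of Klf2, Cd24a and Cd27 were the widest, as their samples lay farthest apart. Cd28 was at 533, 545, 403, 334 and 402 CPM, with 0.03 (SE 0.13) and -0.25 to 0.32. The lowest adjusted p-value of the 7 in edgeR was 0.979.

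**Figure D3:**
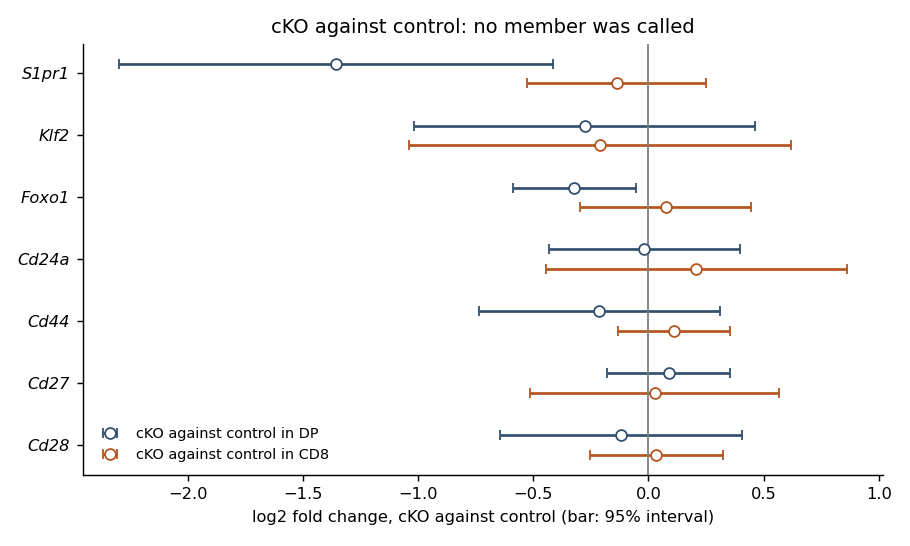
Log2 fold change of cKO against control samples in DP and CD8 cells, with 95% intervals from edgeR, none of them called. The intervals of S1pr1 and Foxo1 in DP cells lie below 0, and all others include 0.

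The difference between the genotype effects of both cell types was tested as an interaction over all 16 samples, called at an adjusted p under 0.05. By edgeR 0 of the 7 genes were called, where 0.107% of all 12131 genes tested were, 1 had an unadjusted p under 0.05, as did 5.27% of all genes, and DESeq2 called 0. That gene was S1pr1, with a difference, CD8 minus DP, of 1.19 (SE 0.42) on the log2 scale, an interval of 0.30 to 2.08, an unadjusted p of 0.0114 and an adjusted p of 0.753 in edgeR. The differences of the other genes ran from -0.06 for Cd27 to 0.39 for Foxo1. So an effect in DP cells that CD8 cells lack was not shown for any of them.

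Levels between genes were compared as TPM. In control DP samples the order was Cd27 (851 ± 123 TPM, SD, n = 3), Cd24a (539 ± 83.0), Cd28 (247 ± 80.7), Foxo1 (48.3 ± 3.70), Klf2 (13.3 ± 2.02), Cd44 (8.67 ± 1.605) and S1pr1 (3.49 ± 1.99). No neighbours in it overlapped between samples. In cKO DP samples the order was alike, from 879 ± 97.4 TPM for Cd27 to 1.29 ± 0.301 TPM for S1pr1 (SD, n = 3), and only Klf2 and Cd44 overlapped. In control CD8 samples the order was Klf2 (1065 ± 506 TPM, SD, n = 5), S1pr1 (780.3 ± 156), Cd27 (672 ± 263), Foxo1 (383 ± 62.9), Cd28 (318 ± 45.1), Cd24a (164 ± 80.4) and Cd44 (29.97 ± 3.07). Every neighbouring pair from Klf2 to Cd28 overlapped, so neighbours among these 5 did not differ beyond their spread, though Klf2 and S1pr1 lay above Foxo1 and Cd28, and Cd27 above Cd28, in every sample, while Cd24a and Cd44 lay apart. In cKO CD8 samples the order was alike, from 939 ± 498 TPM for Klf2 to 33.1 ± 4.53 TPM for Cd44 (SD, n = 5), and only Cd24a and Cd44 did not overlap. S1pr1 thus stood last in DP cells and near the top in CD8 cells.

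**Figure D4:**
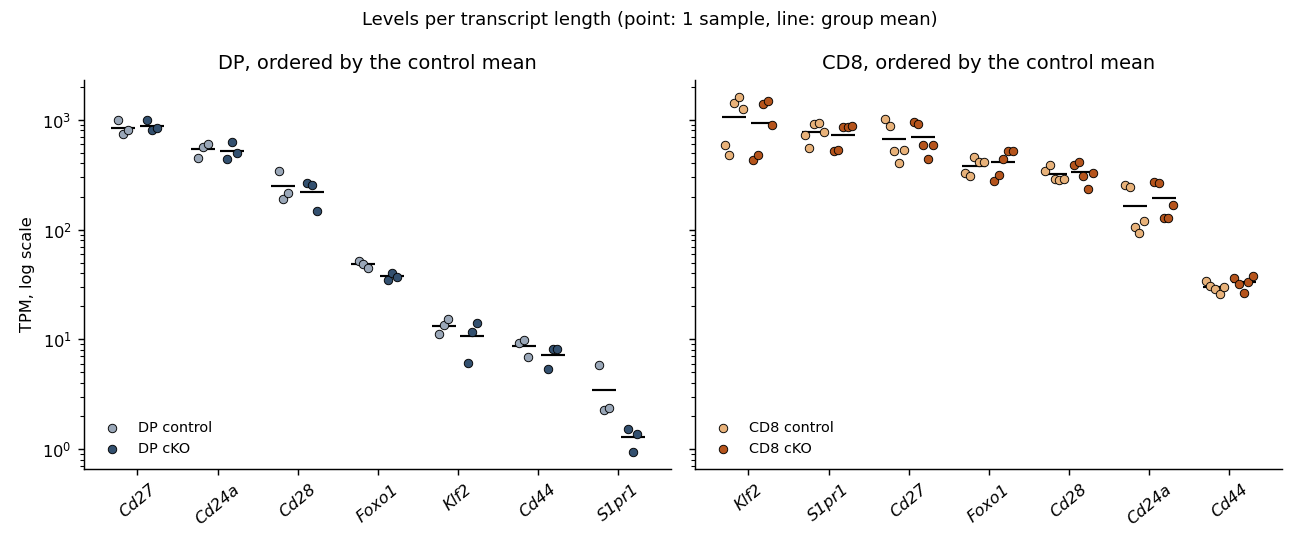
TPM, on a log axis, of the 7 genes in every sample, ordered by the control mean of each cell type, with a line at each group's mean. S1pr1 and Klf2 move from the low end in DP cells to the high end in CD8 cells, where most neighbours overlap.

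Other genes of the pathway were taken from lists, with values as means ± SD (n = 3 DP and n = 5 CD8 control samples). Of the egress signalling list, 4 of 14 genes tested were higher in control CD8 than in control DP cells and 2 lower, where 22% and 22.3% of all genes were, with a median log2 fold change of 0.36 beside -0.01 for all genes tested. Among them S1pr4, another receptor for sphingosine 1-phosphate, was at 25.7 ± 4.01 CPM in DP and 108 ± 26.3 CPM in CD8 controls (log2 fold change 2.096), and Cd69, which removes S1pr1 from the surface, at 50.4 ± 6.19 CPM in DP and 155 ± 58.4 CPM in CD8 controls (log2 fold change 1.65). Coro1a, an actin regulator needed for egress, was at 1271 ± 61.1 CPM in DP and 630.4 ± 146 CPM in CD8 controls (log2 fold change -0.99), and S1pr2 at 14.9 ± 0.425 CPM in DP and 7.92 ± 1.29 CPM in CD8 controls (log2 fold change -0.89). Of the Foxo and Klf circuit, 5 of 16 were higher and 4 lower, with a median of 0.31, so both lists were near the shares of all genes. Ccr7, a chemokine receptor, was at 22.6 ± 7.31 CPM in DP and 557 ± 207 CPM in CD8 controls (log2 fold change 4.65), Il7r, the interleukin-7 receptor, at 16.9 ± 5.23 CPM in DP and 313 ± 51.7 CPM in CD8 controls (log2 fold change 4.24), Itgb7, an integrin chain, at 39.7 ± 3.83 CPM in DP and 372 ± 77.5 CPM in CD8 controls (log2 fold change 3.25) and the forkhead factor Foxo4 at 97.8 ± 18.2 CPM in DP and 27.5 ± 5.17 CPM in CD8 controls (log2 fold change -1.80). Foxo4 was thus lower where Foxo1 was higher.

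Of the mature single-positive genes, 14 of 15 were higher in control CD8 cells and 0 lower, with a median log2 fold change of 3.05. Ms4a4b was at 9.21 ± 5.62 CPM in DP and 279 ± 49.0 CPM in CD8 controls (log2 fold change 4.95), Slfn1 at 6.79 ± 1.61 CPM in DP and 197 ± 22.3 CPM in CD8 controls (log2 fold change 4.88) and the interleukin-6 receptor gene Il6ra at 2.71 ± 1.35 CPM in DP and 70.5 ± 12.6 CPM in CD8 controls (log2 fold change 4.72). Of the DP-stage genes, 9 of 9 were lower, with a median of -4.77, among them the recombination genes Rag1, at 8108 ± 1012 CPM in DP and 52.9 ± 50.8 CPM in CD8 controls (log2 fold change -7.23), and Rag2, at 189 ± 65.6 CPM in DP and 3.89 ± 4.32 CPM in CD8 controls (log2 fold change -5.62). Dntt, which adds bases at receptor gene joints, was at 1485 ± 18.7 CPM in DP and 45.5 ± 29.3 CPM in CD8 controls (log2 fold change -5.00). Of the recently selected genes, 5 of 7 were higher and 1 lower, with a median of 1.38, led by Cd69 and by the early response genes Egr2, at 26.4 ± 13.0 CPM in DP and 101 ± 51.8 CPM in CD8 controls (log2 fold change 1.96), Egr1, at 180.0 ± 26.1 CPM in DP and 500.4 ± 204 CPM in CD8 controls (log2 fold change 1.503), and Nr4a1, at 233 ± 65.9 CPM in DP and 597 ± 202 CPM in CD8 controls (log2 fold change 1.38). Among the CD8 controls Egr2, Egr1 and Nr4a1 were highest in replicates 1 and 2, and Cd69 was lowest there. Of the costimulation and surface marker partners, 12 of 21 were higher and 4 lower, with a median of 0.89. Cd86, a ligand of Cd28, was at 0.332 ± 0.0918 CPM in DP and 10.3 ± 2.93 CPM in CD8 controls, too near 0 in DP cells for a sized fold change. The other receptor of Cd86, Ctla4, was at 4.35 ± 0.862 CPM in DP and 32.6 ± 16.6 CPM in CD8 controls (log2 fold change 2.93), Btla, an inhibitory receptor, at 15.6 ± 2.51 CPM in DP and 92.6 ± 9.30 CPM in CD8 controls (log2 fold change 2.60) and Tnfrsf9, a costimulatory receptor, at 9.05 ± 2.14 CPM in DP and 50.6 ± 3.52 CPM in CD8 controls (log2 fold change 2.51).

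In cKO against control samples no gene of these lists was called by edgeR in DP cells, though other settings called some. Beside the counts below, 9.18% of all 11748 genes had an unadjusted p under 0.05 and DESeq2 called 159 of all genes. Of the 16 mature single-positive genes tested in DP cells, 14 had an estimate below 0, 8 an unadjusted p under 0.05 and 4 were called by DESeq2, with a median log2 fold change of -0.46. Of the 7 recently selected genes, 7 were below 0, 6 had an unadjusted p under 0.05 and 2 were called by DESeq2, with a median of -0.59. These estimates pointed the way of S1pr1 in DP cells, and whether mature cells among the sorted DP cells have a part in it was not tested. Beside it, the CD8 single-positive marker list (6 of 8 measured, most abundant Cd8a, none at 0 in every sample) summed to 4887, 4409 and 4522 CPM in control DP samples and to 4088, 3560.4 and 4059 CPM in cKO DP samples. The memory-type or innate-like list (6 of 6, most abundant Il2rb, none at 0 in every sample) summed to 17.5, 31.2 and 14.5 CPM and 6.65, 9.51 and 13.8 CPM. All cKO DP sums lay below all control DP sums on both lists. The same held for the double negative, NK, myeloid, dendritic and thymic epithelial lists given below. Among single genes tested that both tables hold, 14.7% also had groups that did not overlap in DP cells. The lists are not independent, as Il7r is in both the CD8 single-positive and the double negative list. Some gaps were small, as for NK sums, where the lowest control DP sample had 0.287 CPM and the highest cKO DP sample 0.261 CPM. The double negative sums were 49.5, 34.5 and 28.1 CPM in control and 23.7, 19.4 and 19.4 CPM in cKO DP samples. Dendritic sums were 51.5, 109.8 and 46.6 CPM and 22.7, 32.6 and 45.8 CPM. Myeloid sums were 27.2, 48.5 and 23.9 CPM and 19.8, 19.7 and 18.1 CPM. Members of these lists did not all move alike between control and cKO DP means. Of the myeloid list, Lyz2 was at 11.8 and 3.8 CPM, but Itgam at 10.99 and 11.11 CPM. Of the dendritic list, Cd74 was at 49.3 and 23.2 CPM, but Siglech at 2.43 and 2.63 CPM. The remaining lists overlapped, and the part of these markers was not tested. Most of the sum of the CD8 single-positive list in DP cells is Cd8a and Cd8b1, which DP cells carry themselves, while Runx3 of that list was at 34.6, 45.9 and 28.8 CPM in control and 36.4, 37.2 and 46.2 CPM in cKO DP samples, where the groups overlapped. Of the same list, Il7r was at 22.2, 16.8 and 11.7 CPM in control and 11.6, 8.08 and 5.84 CPM in cKO DP samples, and Ccr7 at 30.9, 20.2 and 16.8 CPM and 11.2, 11.1 and 10.01 CPM. Zbtb7b of the CD4 single-positive list was at 18.5, 11.5 and 14.1 CPM and 6.60, 6.71 and 7.54 CPM. These 3 and Cd8a were lower in every cKO than in any control DP sample, while Cd8b1, Cd3e, Cd4 and Cd40lg, the other measured genes of both lists, overlapped as Runx3 did.

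The other lists in DP cells had medians of 0.06 (egress signalling, 14 tested, 5 at an unadjusted p under 0.05, 2 called by DESeq2), -0.03 (Foxo and Klf circuit, 16, 2 and 1), 0.02 (DP-stage genes, 9, 0 and 0) and -0.06 (costimulation partners, 19, 3 and 1). In CD8 cells edgeR called 0 genes of the 6 lists and DESeq2 0, while genes at an unadjusted p under 0.05 numbered 0 of 13 (egress), 1 of 16 (Foxo and Klf), 3 of 15 (mature), 1 of 8 (DP-stage), 0 of 7 (recently selected) and 1 of 20 (costimulation). Their medians lay between -0.06 and 0.08. In the interaction, 1 gene of these lists was called, Bcl2, which encodes an inhibitor of cell death, with an adjusted p of 0.0499 in edgeR, and 18 of 24 alternatives end that call. Other settings added calls there. DESeq2 called 3 mature single-positive genes, and a fit with the replicate number as a block called Il7r, Ccr7, Bcl2, Slfn1, Il6ra and Nr4a1.

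**Figure D5:**
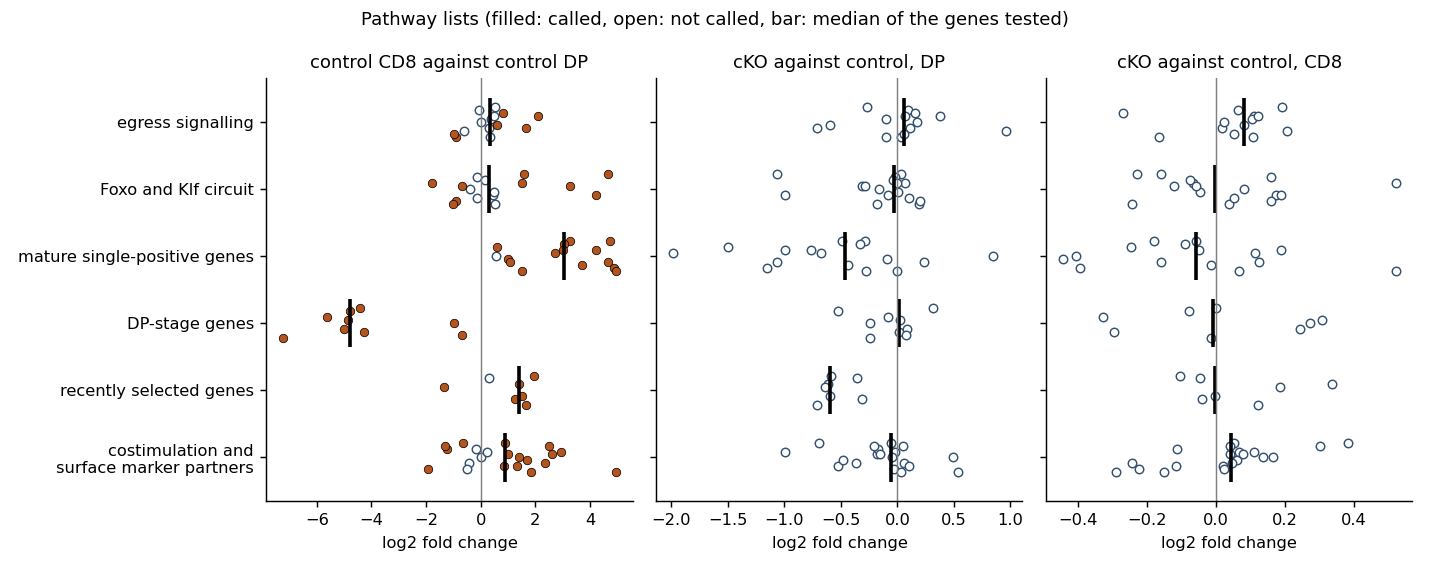
Log2 fold changes of the genes of the 6 lists, with filled points for called genes and a bar at the median of each list. Mature single-positive genes lie above 0 and DP-stage genes below 0 in control CD8 against control DP cells, and in cKO against control no gene is filled.

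Other cells that a sort could hold were followed by the summed CPM of marker lists, as group means of control DP, cKO DP, control CD8 and cKO CD8 samples. For double negative markers (4 of 4 measured, most abundant Il7r) these were 37.4, 20.9, 369.5 and 438. Most of both CD8 sums was Il7r, at 313 and 357 CPM, which is also in the CD8 single-positive and mature lists. In the same 4 groups Kit was at 3.88, 1.96, 47.5 and 70.5 CPM and Il2ra at 15.8, 9.59, 8.08 and 9.83 CPM. Hes1 was at 0.806, 0.812, 0.649 and 1.05 CPM. The regulatory T list (4 of 4, most abundant Ikzf2) gave 221, 234, 481 and 617. In control and cKO CD8 samples the means of Ikzf2 were 428 and 566 CPM. Foxp3 of that list went the other way, at 12.4 and 5.52 CPM (log2 fold change -1.16, adjusted p = 0.277 in edgeR, not called). For gamma-delta T markers (3 of 6 measured, most abundant Sox13) these were 3.12, 3.15, 7.57 and 20.1. The NK list (4 of 4, most abundant Klrb1c) gave 1.07, 0.199, 5.07 and 5.76. For B cell markers (5 of 6 measured, most abundant Cd79b) these were 23.9, 18.7, 17.1 and 15.97. The myeloid list (6 of 6, most abundant Itgam) gave 33.2, 19.2, 3.69 and 4.30. For dendritic markers (6 of 6 measured, most abundant Cd74) these were 69.3, 33.7, 36.9 and 39.2. The erythroid list (5 of 5, most abundant Alas2) gave 0.243, 0.218, 0 and 0.0347. For thymic epithelial markers (5 of 5 measured, most abundant Epcam) these were 6.60, 4.17, 2.72 and 2.06. The endothelial list (4 of 4, most abundant Pecam1) gave 142, 148, 217 and 253. For proliferating blast markers (6 of 6 measured, most abundant Top2a in DP and Mki67 in CD8 cells) these were 1144, 1593, 668 and 776. Of all these markers, Hbb-bs, Hbb-bt, Hba-a1 and Klra8 had 0 counts in every sample. In cKO against control, 1 gene of the lists was called, Cd163l1 of the gamma-delta list in CD8 cells, at 2.53, 2.33, 3.06, 1.41 and 3.07 CPM in control and 12.0, 6.66, 7.86, 6.70 and 10.5 CPM in cKO samples (log2 fold change 1.81, adjusted p = 0.00984 in edgeR).

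The genes most alike to each of the 7 by Pearson r of log2(CPM + 1) over the 16 samples, among 11200 others, are given with r of the deviations from the 4 group means after it. For S1pr1 they were Pced1b (r 0.998, 0.698), Lfng (r 0.997, 0.819) and Itgae (r 0.997, 0.606), for Klf2 Smad7 (r 0.995, 0.904), Pim2 (r 0.994, 0.871) and H2-D1 (r 0.994, 0.898) and for Foxo1 Tgfbr2 (r 0.997, 0.913), Rasa3 (r 0.997, 0.910) and Prkch (r 0.996, 0.890). For Cd24a they were H2-Q2 (r 0.983, 0.922), Cbfa2t3 (r 0.982, 0.959) and Marcksl1 (r 0.979, 0.910), for Cd44 Lad1 (r 0.991, 0.886), Tnfrsf9 (r 0.989, 0.824) and Rin3 (r 0.983, 0.699), for Cd27 Coro2b (r 0.953, 0.931), C030034L19Rik (r 0.948, 0.933) and Rasgrp4 (r 0.939, 0.918) and for Cd28 Zhx1 (r 0.912, 0.903), BC005561 (r 0.902, 0.882) and Zbtb1 (r 0.901, 0.869). The points share libraries, and r over all samples includes the gap between both cell types, so no p is given. Tnfrsf9, among the genes alike to Cd44, also belongs to the costimulation list.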

How the data were processed

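The authors filtered reads with fastp 0.13.1, aligned them with HISAT2 2.1.0 and counted fragments per gene, with strand, by featureCounts 1.6.1, and deposited the raw counts without normalization, replicates apart. Versions come from the submitters' processing notes. The build is mm10 for DP cells and in the labels of the CD8 samples. The exonic length of each gene, in the deposited DP table, was used for TPM in both cell types. There are no molecular identifiers, so counts are not independent molecules.

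Tests were edgeR 4.0.16 quasi-likelihood F tests (R 4.3.3) with TMM, filterByExpr and Benjamini-Hochberg adjustment over all genes tested, on the groups compared alone, and on all 4 groups for the interaction, without covariates. Standard errors were the log2 fold change over the square root of F. Exact permutation tests (scipy 1.17.1) were 2-sided, on mean log2(CPM + 1), with smallest p 0.1 for 3 against 3, 0.0357 for 5 against 3 and 0.00794 for 5 against 5. Alternatives were DESeq2 1.42.0, RLE and upper-quartile factors, other filters, adjusted p alone, all groups in the fit, a replicate block, each sample left out, CD8 without both samples numbered 1, and CPM for TPM. DP without both samples numbered 1 was added after seeing the data. Figures used matplotlib 3.10.9, and the functions were checked on simulated counts.

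Named genes were the 7, Tox4, up to 4 called genes of each list with the largest change between stages, any list gene called in cKO cells, the 3 genes most alike to each, and the most abundant marker, and a gene of the DP-stage list that this rule takes is not reported here. The members and lists were chosen with earlier results of these data known. Mice were littermates, but which samples shared a litter is not given in the sources used here, and p-values measure the spread between these samples. Trac, Trbc2, Trdc, Tcrg-C1, Tcrg-C2 and Ighm were not used here.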

Additional observations from a re-analysis of the deposited data

Results flagged for a closer look

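In the groups of 5 CD8 samples, the gap of the highest or lowest sample to its neighbour was set against Dixon's limit of 0.71 of the range, over 50 sets of values: the 7 genes, Tox4, depth, genes detected and marker sums in both groups. Chance passes it in about 1 of 20, and 3 did, none of them for the 7 genes. Control CD8 replicate 1 had 17741 genes with a count, the next sample 14194 (a gap of 0.879 of the range). The same sample had a B cell marker sum of 39.2 CPM, the next 14.6 CPM (gap 0.799). The double negative marker sum of cKO CD8 replicate 3 was 639 CPM, the next 419.8 CPM (gap 0.764). Most of that sum was Il7r, which is also in the mature single-positive list. It was at 549 CPM in this sample and at 322, 284, 350 and 278 CPM in cKO CD8 replicates 1, 2, 4 and 5.

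The genotype effect of Bcl2 differed between both cell types by 0.79 on the log2 scale, CD8 minus DP, with an adjusted p of 0.0499 in edgeR's interaction test, close to the threshold. Of 24 alternatives it was called in 6 and not in 18. With a sample left out, it was called without DP control replicate 3 and without CD8 cKO replicate 1 and lost without any of the other samples. Its means were 54.1 and 33.9 CPM in control and cKO DP samples and 346 and 374 CPM in control and cKO CD8 samples.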

How the results depend on the processing

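Of the 7 genes, the counts called (0 in DP, 0 in CD8, 5 between stages, 0 for the difference) held under every alternative run, except 6 between stages without CD8 control replicate 1. The log2 fold changes between stages kept their sign in all 112 values, and those of S1pr1 in DP cells ran from -1.57 to -0.85. Signs of uncalled genes changed in 8 of 105 values in DP cells, 9 of 133 in CD8 cells and 15 of 168 for the difference. With a sample left out, log2 fold changes that crossed 0 ran in DP cells Klf2 -0.58 to 0.02, Cd24a -0.17 to 0.12 and Cd28 -0.26 to 0.12, in CD8 cells Foxo1 -0.05 to 0.19, Cd27 -0.13 to 0.24 and Cd28 -0.05 to 0.12, and for the difference Klf2 -0.25 to 0.40, Cd27 -0.22 to 0.15 and Cd28 -0.09 to 0.30. Upper-quartile factors gave 0.00 for Cd24a in DP cells, and without both DP samples numbered 1, added after seeing the data, Cd28 was 0.00 in DP cells and the difference for Klf2 was -0.11. The cause was not tested. By CPM, 17 of 28 ranks moved, since CPM does not divide by length.

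Of all genes, in DP cells 17 were called in the analysis as reported, 159 with DESeq2, 74 without the filter, 42 with all groups in the fit, 72 without both samples numbered 1 and 0 to 8 with a sample left out. Of the list genes in DP cells, where the analysis as reported called none, the fit without the filter called 2 mature, 1 egress, 1 Foxo and Klf, 1 recently selected and 1 costimulation genes, and the fit with all groups 3 mature and 1 costimulation genes. Without both samples numbered 1, added after seeing the data, 1 egress, 1 mature and 1 costimulation gene were called. In CD8 cells 11 were called, 46 with DESeq2, 5 without both samples numbered 1 and 4 to 20 with a sample left out. For the difference 13 were called, 3 with upper-quartile factors, 36 with DESeq2, 0 and 6 without the DP or CD8 samples numbered 1 and 0 to 11 with a sample left out.

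Whether same-numbered samples pair was checked by the correlation of their deviations from the group means, with a limit of 0.1 for every pair. The lowest pair had 0.0813 in DP cells and 0.0999 in CD8 cells over the genes tested in each comparison, and 0.0767 and 0.115 over the 12131 genes tested across all samples. Over the genes of each comparison, same-number pairs averaged 0.382 in DP and 0.308 in CD8 cells. Pairs of other numbers averaged -0.182 and -0.0801. By the gene set of each comparison neither passes, and CD8 cells pass on the wider one. Both sets were looked at, and the calls with the block were already known, so the numbers were taken as numbers only. Of 6 DP and 10 CD8 samples, 3 and 6 correlated best with their own number, and 3 and 7 over the 12131 genes. With the replicate number as a block, 131, 31 and 33 genes were called in DP cells, in CD8 cells and for the difference, and none of the 7 changed its call, with an adjusted p of 0.0596 for the difference of S1pr1 in edgeR (over all its alternatives 0.0596 to 0.99995). Of the lists in DP cells, the block called 2 egress genes (Dock2 and Cd69), 2 of the Foxo and Klf circuit (Il7r and Ccr7), 4 mature genes (these with Bcl2 and Slfn1), 4 recently selected genes (Cd69, Nr4a1, Egr1 and Itm2a) and 1 costimulation gene (Icos). For the difference it called Il7r, Ccr7, Bcl2, Slfn1, Il6ra and Nr4a1. For Cd24a in CD8 cells the block gave 0.25 with an adjusted p of 0.363 in edgeR (over all its alternatives 0.363 to 0.99955). Cd24a was higher in the cKO than in the control CD8 sample of every number. The values of S1pr1 in DP cells rest on few counts, 15 to 40 in a cKO sample.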
